A study of Mus musculus with 10 samples.

Results

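The mouse embryonic line 10T1/2 was compared with an embryonic fibroblast line (MEF) of wild-type genotype (WT), to describe the genes that set the lines apart whatever was done to the cells. The comparison took 7 of the 10 arrays of the series. The 4 arrays of 10T1/2 cells held untreated cells (control), cells overexpressing MAL, cells with Med23 knocked down (labelled as Med23 deficiency), and cells with both treatments. The 3 arrays of WT MEFs held cells without serum (0 min) and cells given serum for 30 and 90 min. The MEF line had been taken from day 9.5 embryos and had immortalised itself in culture, and both lines were kept in medium with 10% fetal bovine serum. The labels name no genotype for 10T1/2 and no serum step for its arrays. The 3 arrays left out of the comparison came from Med23 knockout (KO) MEFs at the same serum times, and their values are given beside a few genes without a test. They entered only an alternative model over all 10 arrays, with a term of their own. That model takes the serum response to be the same in KO and WT MEFs, so its calls rest on this. Each condition had 1 array and each line stood for itself alone. A p-value here therefore measures the spread between differently treated cultures of 1 line each. Line, array batch and serum handling cannot be told apart.

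10T1/2 is a line of multipotent mesenchymal cells that can be turned into muscle, fat or cartilage, and it is much used to study smooth muscle differentiation. Fibroblasts keep a memory of where in the body they arose, in the form of Hox and other patterning genes, and differ in the matrix and signals they secrete. Mouse fibroblasts that immortalise in culture commonly do so after loss of p53 or of the products of Cdkn2a. Med23 is a subunit of Mediator, which links transcription factors to RNA polymerase II, and MAL (gene Mrtfa) is an actin-regulated coactivator of SRF.

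Because the sources used here do not say whether both lines were normalized together, levels were compared by rank. The ranks of 45037 probe sets on each array were placed on 1 shared scale of log2 values from 2.11 to 14.4, with a median of 3.77, and a level below that median was read as near background. Values of 10T1/2 run in the order control, MAL, Med23 knockdown, both treatments, and values of WT MEFs in the order 0, 30, 90 min. The labels were checked on the manipulated genes. Med23 read 5.62, 5.81, 4.33 and 4.05 in 10T1/2 cells, with the arrays labelled Med23 deficient lowest, against 7.17, 7.29 and 7.01 in WT MEFs. It was called lower in 10T1/2 (log2 difference -2.20 ± 0.43 SE, adjusted p = 0.00303; -1.43 with treatments and serum time in a model of the 7 arrays), and it was below the median in KO MEFs at 3.18, 3.21 and 2.73. Mrtfa read 8.58, 8.32, 8.47 and 8.33 in 10T1/2 cells against 7.73, 7.74 and 7.63 in WT MEFs, so that its probe set did not rise on the MAL arrays. Srf read 8.05, 8.10, 7.89 and 7.65 in 10T1/2 cells, between the 6.57 of WT MEFs without serum and their 9.73 and 9.72 with it, and was not called (adjusted p = 0.379). Its direction depended on the serum times: the difference was -1.82 without the WT MEF array at 0 min (adjusted p = 0.00105). It was 1.56 with treatments and serum time in a model of the 7 arrays. That model fits each WT MEF array exactly, so it sets 10T1/2 against the array at 0 min alone. Values from it are therefore given without a p-value.

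Of 18193 genes with a named probe set, 12960 reached the median on at least 1 of the 7 arrays and were tested. The limma fit called 6734 of them at an adjusted p of 0.05 (52.0% of those tested). Of these, 4385 were higher in 10T1/2 (33.8%) and 2349 were lower (18.1%). A difference of at least 1 on the log2 scale besides the call was found for 2847 genes upward (22.0%) and 1706 downward (13.2%). All 4 10T1/2 arrays lay above all 3 WT MEF arrays for 4817 genes (37.2%) and below all of them for 2455 (18.9%). The untreated 10T1/2 control alone lay at least 1 above each WT MEF array for 2752 genes (21.2%) and at least 1 below each of them for 1808 genes (14.0%). These shares are the background for every count of a gene group given here. Of the called genes, 3250 had further probe sets that reached the median on at least 1 array, and for 734 of them at least 1 of these pointed the other way. Of 123 called genes named here, 34 had a log2 difference that moved by over 1.5 times when all probe sets of the gene were averaged, those near background included. Models with terms for serum time and each treatment moved 21 by as much, 20 of them over all 10 arrays and 18 over the 7. Such values are given beside the genes. In cultures read as bulk RNA, fewer cells expressing a gene and less of its RNA per cell cannot be told apart.

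The split between higher and lower calls moved with the length of the gene in the genome. The median difference over all tested genes was 0.28. Over 5 equal groups of genes from shortest to longest it was 0.50, 0.48, 0.27, 0.09 and -0.05, and 81.5%, 77.9%, 67.7%, 53.4% and 45.7% of the calls were higher in 10T1/2. The slope was steepest on the untreated control, where the shortest group differed from the WT MEF mean by 0.65 and the longest by -0.25, and flattest with both treatments, at 0.26 and 0.10. Array controls also differed between the lines. The probe sets for RNA that is added to the sample during labelling had array medians of 8.26, 7.61, 7.68 and 6.97 on the 10T1/2 arrays against 5.87, 6.21 and 5.69 on the WT MEF arrays. The part of labelling or RNA handling in the gene-length pattern was not tested. When each array was centred within the 5 length groups, an alternative added after the data were seen, 3132 genes were higher and 3212 lower, so that a small median shift of a gene group upward is given with its length-centred value.

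**Figure D1:**
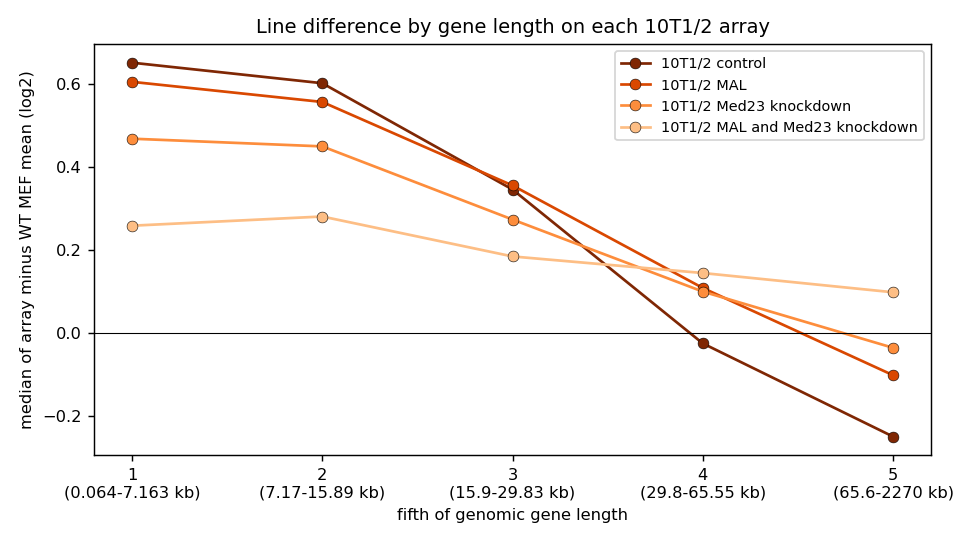
Median difference of each 10T1/2 array from the mean of the 3 WT MEF arrays (log2, vertical axis) for tested genes in 5 equal groups of genomic length (horizontal axis), with 1 line per 10T1/2 array. The control falls from 0.65 in the shortest genes to -0.25 in the longest, while the array with both treatments moves between 0.28 and 0.10.

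The 15 genes with the largest differences upward were high on every 10T1/2 array and near background, or far lower, on every WT MEF array. Ptn, the heparin-binding growth factor pleiotrophin, read 12.02, 11.95, 12.11 and 12.22 in 10T1/2 cells against 2.83, 2.83 and 3.27 in WT MEFs. It was at least 316-fold higher in 10T1/2, with the WT MEF levels raised to the median (adjusted p = 8.31e-08). KO MEFs also read high for Ptn, at 12.08, 11.71 and 11.72, so the low level belonged to the WT MEF arrays. Its 2 other probe sets differed by between 1.07 and 7.93, and Ptn differed by 6.03 averaged over all of them. Lgals3, the galactoside-binding lectin galectin-3, read 12.83, 13.08, 11.64 and 10.71 in 10T1/2 cells against 3.32, 3.96 and 3.49 in WT MEFs (at least 301-fold, adjusted p = 7.67e-06), and it was near background in KO MEFs too, at 2.94, 3.08 and 3.18. Ctsz, a lysosomal cysteine protease, was at least 204-fold higher, with levels from 10.95 to 11.88 in 10T1/2 cells and from 2.68 to 3.16 in WT MEFs. Like Ptn, it was above the median on all 3 KO MEF arrays.

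The same 15 held several matrix and secreted proteins. Fbln5, a fibulin needed for elastic fibres, read 11.82, 11.43, 11.76 and 11.07 in 10T1/2 cells against 4.18, 4.15 and 4.06 in WT MEFs, a 168-fold difference (adjusted p = 2.5e-07) that corresponds to 7.39 on the log2 scale. Averaged over all its probe sets, those near background included, the difference of Fbln5 was 3.81. Ltbp2, a microfibril-associated protein, was at least 73.0-fold higher, Col6a3, a chain of collagen VI, was 119-fold higher and Serpinf1, the secreted serpin PEDF, was 98.5-fold higher. Nid2, a linker of basement membranes, was at least 41.9-fold higher. On all 3 KO MEF arrays Nid2 was above the median and Ltbp2 below it. Islr, a leucine-rich repeat protein of mesenchymal cells, read 11.47, 8.27, 11.62 and 10.08 in 10T1/2 cells against 3.41, 4.16 and 3.82 in WT MEFs, so that the groups stayed apart although the array with MAL alone was the lowest of its line.

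The others of the 15 were of several kinds, and Xist among them is described with the sex chromosomes below. Vamp8, a vesicle fusion SNARE, was at least 75.4-fold higher, Zfp503, a zinc finger repressor, at least 54.1-fold, Pgm5, a protein of cell junctions, at least 44.8-fold, and Cbr3, a carbonyl reductase, at least 63.4-fold. On all 3 KO MEF arrays Vamp8 was above the median and Pgm5 below it, while Zfp503 was below it on 1. H2-D1, a classical class I histocompatibility gene, read from 8.89 to 10.17 in 10T1/2 cells and from 2.56 to 2.92 in WT MEFs on the probe set that stands for it. Its 7 other probe sets differed by only -0.09 to 2.73, and the mean over all its probe sets by 1.60, so the size of its difference depends on the probe set. Adjusted p-values of the 15 ran from 8.31e-08 for Ptn to 0.000166 for Islr.

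**Figure D2:**
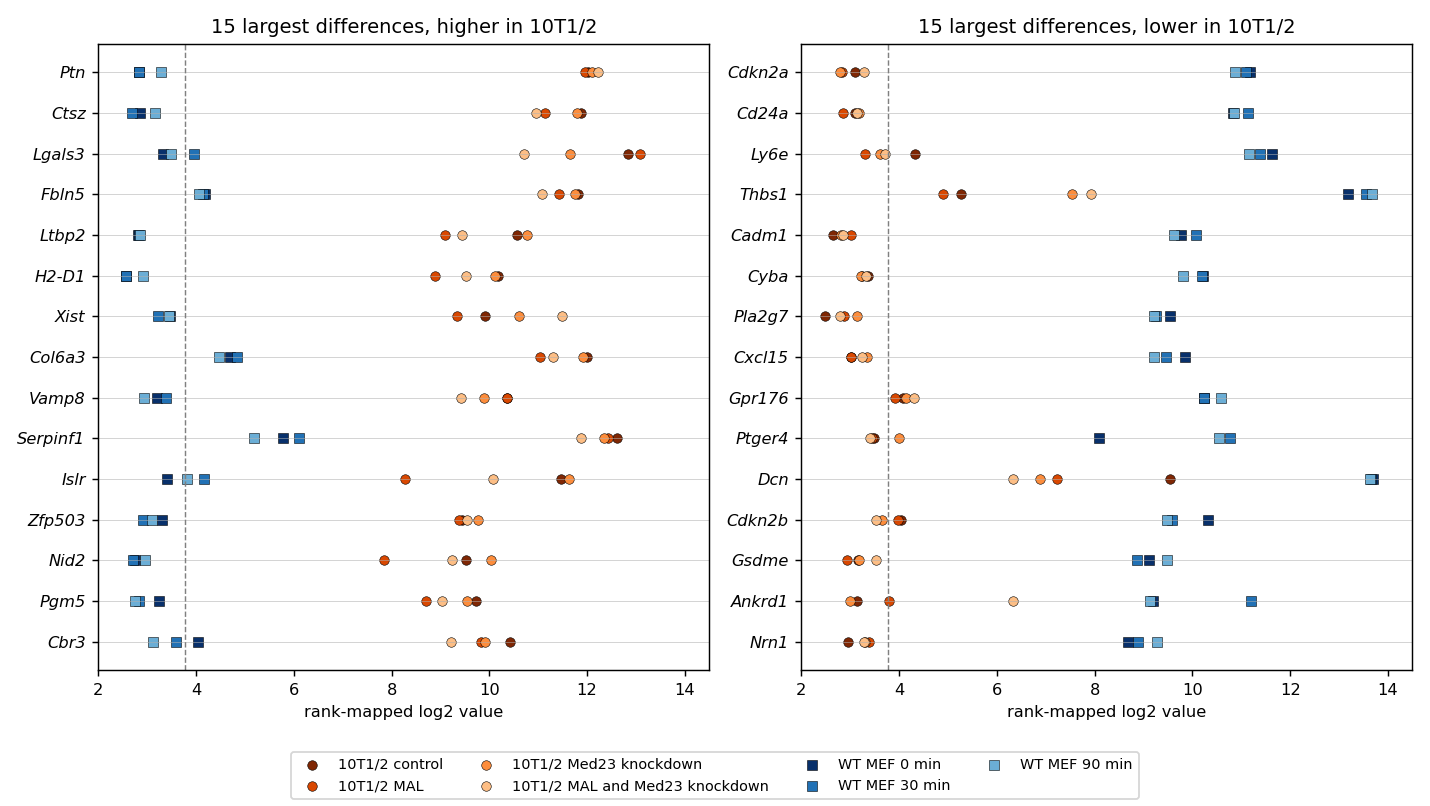
Rank-mapped log2 value (horizontal axis) of the 15 genes with the largest positive and the 15 with the largest negative line difference, with circles for the 4 10T1/2 arrays, squares for the 3 WT MEF arrays, and a dashed line at the median of all probe sets, 3.77. In every row all circles lie on 1 side of all squares; Thbs1, Dcn, Islr and Ankrd1 show wide spreads among the 10T1/2 arrays.

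The largest difference downward was that of Cdkn2a, which encodes the cell-cycle inhibitor p16 and, from another start, the p53-stabilising protein Arf. It read 3.10, 2.83, 2.78 and 3.27 in 10T1/2 cells, all near background, against 11.19, 11.11 and 10.87 in WT MEFs. It was at least 156-fold lower in 10T1/2, with the 10T1/2 levels raised to the median (adjusted p = 1.07e-07). Cdkn2b, the neighbouring gene for the inhibitor p15, read 4.05, 3.99, 3.64 and 3.53 in 10T1/2 cells against 10.32, 9.57 and 9.47 in WT MEFs (at least 59.5-fold lower, adjusted p = 1.29e-06). In KO MEFs both genes were near background as well, Cdkn2a at 2.87, 2.81 and 3.18 and Cdkn2b at 3.34, 3.36 and 3.45. Mtap, a purine salvage enzyme and the next tested gene on the other side of Cdkn2a, read 10.22, 10.80, 10.61 and 10.87 in 10T1/2 cells against 10.46, 10.42 and 10.72 in WT MEFs. Those levels overlapped, and Mtap was not called (log2 difference 0.09 ± 0.22 SE, adjusted p = 0.739). Arrays of expression do not show whether the locus itself differs between the lines.

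The 250 bases before the RefSeq starts of both genes are shown because Cdkn2a had the largest difference downward, Cdkn2b lies beside it, and the starts of Cdkn2a differ in base composition. Capitals mark CpG pairs, the positions follow GRCm38.p6, and each sequence lies on the minus strand. The start farther upstream lies at chr4:89294620-89294869, that nearer the shared exons at chr4:89282193-89282442, and the start of Cdkn2b at chr4:89311033-89311282. They hold 40, 7 and 12 CpG pairs. The probe set cannot be assigned to either start of Cdkn2a here.
Cdkn2a, upstream start: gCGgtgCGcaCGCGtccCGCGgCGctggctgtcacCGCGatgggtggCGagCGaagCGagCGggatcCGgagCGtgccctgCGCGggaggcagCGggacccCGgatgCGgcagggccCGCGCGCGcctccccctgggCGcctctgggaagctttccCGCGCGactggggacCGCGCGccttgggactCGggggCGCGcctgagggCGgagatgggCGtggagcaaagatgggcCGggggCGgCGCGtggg
Cdkn2a, downstream start: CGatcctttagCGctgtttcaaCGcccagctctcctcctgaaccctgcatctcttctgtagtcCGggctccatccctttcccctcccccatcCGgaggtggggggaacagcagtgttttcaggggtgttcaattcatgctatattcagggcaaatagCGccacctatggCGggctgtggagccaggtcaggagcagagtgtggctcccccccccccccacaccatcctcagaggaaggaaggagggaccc
Cdkn2b: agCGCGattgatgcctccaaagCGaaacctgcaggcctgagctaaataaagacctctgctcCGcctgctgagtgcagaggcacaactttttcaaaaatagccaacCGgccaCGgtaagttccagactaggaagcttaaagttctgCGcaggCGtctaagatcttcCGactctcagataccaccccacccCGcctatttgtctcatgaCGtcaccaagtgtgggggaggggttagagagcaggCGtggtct

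Around them, the 34 tested cell-cycle inhibitor and p53 genes held 8 higher and 9 lower in 10T1/2, with a median of 0.17 (-0.23 length-centred) against 0.28 for all genes. Lower ones included Perp, a p53 target of the plasma membrane, which read 2.88, 3.41, 2.91 and 2.59 in 10T1/2 cells against 7.57, 7.70 and 7.35 in WT MEFs. Cdk6, a kinase that drives entry into S phase, was 10.4-fold lower and Rb1, the retinoblastoma protein that it phosphorylates, 8.95-fold lower. Averaged over all its probe sets, Rb1 differed by -1.78. Ccnd2, a D cyclin, was 14.9-fold higher, at 8.77, 9.61, 10.04 and 10.99 in 10T1/2 cells against 5.30, 6.06 and 6.51 in WT MEFs. Cdkn1a, the inhibitor p21 and a p53 target, was 4.41-fold higher, with levels from 10.98 to 11.50 in 10T1/2 cells and from 8.03 to 9.78 in WT MEFs, and differed by 3.28 averaged over all its probe sets.

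Genes of DNA replication and mitosis were higher in 10T1/2 as a group. Of 42 tested, 29 were called higher and 1 lower, with a median of 1.66 (1.38 length-centred, 26 higher and 1 lower). The untreated control lay at least 1 above each WT MEF array for 21 of them and below for 0. Rrm2, a subunit of ribonucleotide reductase, read 9.59, 7.95, 10.56 and 9.30 in 10T1/2 cells against 5.20, 5.02 and 3.52 in WT MEFs. Tk1, thymidine kinase, read 10.43, 8.83, 10.16 and 8.66 in 10T1/2 cells against 6.38, 5.87 and 4.57 in WT MEFs, and Aurkb, a mitotic kinase, was at least 12.4-fold higher. The array medians of the 42 genes were 8.37, 7.96, 8.63 and 8.09 in 10T1/2 cells, lowest on both arrays with MAL, against 6.86, 6.32 and 5.65 in WT MEFs, lowest at 90 min. How many cells of each culture were dividing was not measured, and WT MEFs at 0 min had no serum.

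The other large downward differences were surface, secreted and signalling genes. Cd24a, a small glycosylated surface protein, read 3.09, 2.85, 3.19 and 3.13 in 10T1/2 cells against 10.83, 11.13 and 10.86 in WT MEFs (at least 144-fold lower, adjusted p = 9.67e-08), and KO MEFs read 10.49, 10.51 and 11.04. Ly6e, a surface protein anchored by lipid, was at least 179-fold lower on its main probe set (-4.75 averaged over all). Cadm1, an adhesion molecule of the immunoglobulin family, was at least 66.1-fold lower, and Cyba, a subunit of NADPH oxidase, at least 78.9-fold. Pla2g7, which breaks down platelet-activating factor, was at least 47.4-fold lower. Cxcl15, a chemokine, was at least 53.1-fold lower, and Nrn1, the surface protein neuritin, at least 36.2-fold. Cadm1, Pla2g7 and Cxcl15 were below the median on all 3 KO MEF arrays too, while Cyba and Nrn1 were above it on all of them. Gpr176, an orphan receptor coupled to G proteins, was 75.5-fold lower, with levels from 3.92 to 4.31 in 10T1/2 cells and from 10.23 to 10.58 in WT MEFs. Gsdme, a pore-forming gasdermin, was at least 41.5-fold lower on its main probe set, while its other probe set was 0.89 higher and the mean over both was -2.53.

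For others of the 15 the level also moved within a line. Thbs1, the matricellular protein thrombospondin 1, read 5.26, 4.89, 7.53 and 7.92 in 10T1/2 cells, higher on both arrays with Med23 knockdown, against 13.19, 13.55 and 13.67 in WT MEFs. The groups stayed far apart, at 134-fold (adjusted p = 0.000108). Dcn, the proteoglycan decorin, read 9.54, 7.23, 6.89 and 6.32 in 10T1/2 cells, highest on the control, against 13.69, 13.66 and 13.64 in WT MEFs, and KO MEFs read only 4.38, 4.14 and 4.64. Averaged over all its probe sets, Dcn differed by -3.28, against -6.17 on the main one. Ankrd1, a nuclear ankyrin repeat protein of muscle and fibroblasts, read 3.14, 3.80, 3.0 and 6.32 in 10T1/2 cells against 9.20, 11.20 and 9.13 in WT MEFs. Ptger4, a receptor of prostaglandin E2, read 3.48, 3.44, 4.0 and 3.40 in 10T1/2 cells against 8.09, 10.76 and 10.54 in WT MEFs, lowest without serum. Its difference of -6.22 was -4.13 with treatments and serum time in a model over all 10 arrays.

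Genes of the sex chromosomes also separated the lines. Xist, the noncoding RNA that coats the inactive X chromosome, read 9.90, 9.34, 10.61 and 11.49 in 10T1/2 cells against 3.48, 3.22 and 3.44 in WT MEFs (at least 94.6-fold, adjusted p = 8.68e-06). Of 4 tested genes of the Y chromosome, 3 were lower in 10T1/2 and 1 was higher. Eif2s3y, a translation factor subunit, read 2.95, 2.77, 2.39 and 2.80 in 10T1/2 cells, all near background, against 6.30, 6.41 and 7.21 in WT MEFs, and was at least 7.31-fold lower. Kdm5d and Uty, histone demethylases, were below the median on all 10T1/2 arrays and at least 2.60-fold and 1.47-fold lower than in WT MEFs. Averaged over all their probe sets, Eif2s3y and Kdm5d differed by -1.94 and -1.15. The 1 called higher was Sry, the testis-determining gene, at 5.01, 5.10, 5.10 and 4.75 in 10T1/2 cells against 4.45, 4.24 and 4.61 in WT MEFs (adjusted p = 0.0165). Its probe set carries the suffix that the array maker gives to sets whose probes may bind other transcripts. Of the 5 tested sex marker genes, 2 were higher and 3 were lower.

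A stricter description needs no shared scale. A gene was counted as switched on in 10T1/2 when its probe set was at or above the 75th percentile of the array of the untreated control and below the 50th on each WT MEF array, and as switched off in the opposite case. Of 18193 genes, 129 were switched on (0.709%) and 51 switched off (0.280%). The same position on all 4 10T1/2 arrays was kept by 54 of those switched on (0.297% of all genes) and 31 of those switched off (0.170%), or 47.2% of both sets. Of the 129, 54 left the upper range on the MAL array, 32 on the Med23 knockdown array and 65 with both treatments. Of the 51, 11, 12 and 18 left the lower range on the same arrays. Of the 54 that held, 23 were below the median on all 3 KO MEF arrays, and of the 31 that held, 14 were. Limits of 80 and 40 in place of 75 and 50 left 15 switched on and 17 off on all 4 arrays.

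The 54 genes included 9 of the 15 with the largest differences upward, and 3 more were chosen after their values were seen. Pdpn, the mucin-like surface protein podoplanin, read 9.86, 9.50, 9.67 and 9.11 in 10T1/2 cells against 3.30, 3.42 and 3.26 in WT MEFs. Thbd, the surface anticoagulant thrombomodulin, read 8.42, 8.62, 9.46 and 9.86 in 10T1/2 cells against 3.11, 3.52 and 2.99 in WT MEFs. Cbr1, a carbonyl reductase like Cbr3, was at least 37.4-fold higher. All 3 were near background in KO MEFs, where none exceeded 3.71. The 31 switched off included 8 of the 15 with the largest differences downward, among them Cdkn2a, Cd24a, Cadm1 and Cyba.

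Promoters of the switched genes were compared for CpG content, as the ratio of CpG pairs seen to the number that the C and G content gives, in the 300 bases around RefSeq starts. Of the 54 genes switched on, 41 had a promoter in the table, with a median ratio of 0.55 (quartiles 0.35 and 0.72). Of the 31 switched off, 24 had one, with a median of 0.74 (quartiles 0.45 and 0.82). The median over 10410 tested genes was 0.75 (quartiles 0.53 and 0.91). A ratio of at least 0.6 was found for 41.5% of the promoters switched on, 62.5% of those switched off and 69.5% of all. This is a description without a test. The promoter of Ptn, the gene with the largest difference, is among the CpG-poor ones. Its 250 bases before the start, at chr6:36810180-36810429 on the minus strand of GRCm38.p6, hold 5 CpG pairs, given in capitals.
Ptn: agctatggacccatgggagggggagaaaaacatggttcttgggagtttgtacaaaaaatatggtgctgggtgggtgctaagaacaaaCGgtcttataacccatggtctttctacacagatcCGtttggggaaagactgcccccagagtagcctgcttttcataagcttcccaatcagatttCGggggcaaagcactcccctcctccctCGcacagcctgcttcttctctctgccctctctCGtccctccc

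Hox genes, which record position along the body axis, were higher or not called. Of 15 tested, 8 were called higher and 0 lower, with a median of 1.23 (0.74 length-centred), while 18 of the 33 measured lay below the median on all 7 arrays. Length-centring gave 8 higher and 1 lower. Hoxa2, an anterior member of the cluster, read 7.11, 7.23, 6.69 and 6.48 in 10T1/2 cells against 2.90, 2.84 and 2.82 in WT MEFs (at least 8.61-fold, adjusted p = 4.73e-06). Hoxa3 was at least 7.90-fold higher and Hoxa7 8.47-fold, with Hoxa7 at 8.04, 7.89, 8.23 and 7.78 in 10T1/2 cells against 4.75, 4.53 and 5.44 in WT MEFs. Hoxa4, Hoxa5 and Hoxa10 of the same cluster were higher by 1.63, 1.59 and 2.29 on the log2 scale, Hoxb9 by 1.23 and Hoxc9 by 1.53. Averaged over all probe sets, the differences were 1.53 for Hoxa3, 1.09 for Hoxa4, 2.73 for Hoxa5 and 1.16 for Hoxa10, and Hoxb9 differed by 0.74 when length-centred. Hoxa9 was not called, at 4.88, 5.27, 5.21 and 4.98 in 10T1/2 cells against 4.75, 4.43 and 5.04 in WT MEFs (adjusted p = 0.197). In all, 6 of the 8 calls came from the Hoxa cluster on chromosome 6.

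Other patterning transcription factor genes gave 29 calls upward and 8 downward among 56 tested, with a median of 0.85 (0.50 length-centred). Tbx1, a T-box factor of the pharyngeal region, read 9.09, 8.39, 9.03 and 8.12 in 10T1/2 cells against 3.07, 3.18 and 3.39 in WT MEFs (at least 29.5-fold, adjusted p = 2.99e-06). Dlx5, a homeobox factor of branchial arches and bone, read 7.40, 7.08, 8.04 and 7.42 in 10T1/2 cells against 3.49, 3.32 and 3.19 in WT MEFs. Osr1 and Osr2, odd-skipped factors of embryonic mesenchyme, were 13.3-fold and at least 5.05-fold higher, with Osr2 at 1.90 on the log2 scale averaged over all its probe sets. Foxd1 and Six2, factors of kidney stroma and kidney progenitors, were 9.84-fold and 9.34-fold higher. Going down were Foxf1, a forkhead factor of gut and lung mesenchyme, at 5.22, 4.44, 5.14 and 5.51 in 10T1/2 cells against 6.76, 7.13 and 8.24 in WT MEFs, and Lhx9, a LIM homeobox factor, at least 2.38-fold (-0.63 averaged over all its probe sets). Six4 was 4.38-fold lower on its main probe set, a difference of -2.13 that was -3.36 with treatments and serum time in a model over all 10 arrays, but its call was lost in the mean over its probe sets (-0.63, adjusted p = 0.127).

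Sox2, a factor of neural and pluripotent cells, was switched off in 10T1/2. It read 2.51, 2.90, 2.89 and 2.99 in 10T1/2 cells against 8.45, 7.54 and 9.23 in WT MEFs, at least 24.8-fold lower (adjusted p = 8.76e-06), and was near background in KO MEFs. Sox2 was 1 of 5 called lower among 17 fetal and germline regulator genes, of which 6 were higher. Of the 8 germ and embryonic stem cell markers, 6 were below the median on all 7 arrays.

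Collagen genes went both ways: of 30 tested, 13 were higher and 6 lower, with a median of 0.65 (0.46 length-centred). Of all tested genes, 33.8% were higher and 18.1% lower. Col1a2, a chain of collagen I, read 14.06, 13.81, 14.00 and 13.83 in 10T1/2 cells against 9.72, 9.92 and 9.25 in WT MEFs, a 19.6-fold difference. Col1a1, the partner chain, went the other way on its main probe set, at 10.47, 10.19, 10.62 and 10.36 in 10T1/2 cells against 12.38, 12.41 and 12.27 in WT MEFs. Its other probe set was 0.71 higher, and the mean of both was not called (-0.61, adjusted p = 0.0572), so the direction for Col1a1 depends on the probe set. Col2a1, the collagen of cartilage, read 10.04, 8.80, 8.76 and 6.82 in 10T1/2 cells against 3.84, 3.75 and 3.76 in WT MEFs. Col8a1, a short-chain collagen of vessel walls, read 3.23, 3.83, 3.09 and 3.23 in 10T1/2 cells against 8.55, 8.68 and 9.49 in WT MEFs, at least 34.9-fold lower.

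Matrix glycoproteins and proteoglycans gave 25 calls upward and 16 downward among 61 tested, with a median of 0.45 (0.28 length-centred). Members of basement membranes were among those higher. Lama4, a laminin chain, read 9.23, 9.17, 9.85 and 9.66 in 10T1/2 cells against 3.91, 3.96 and 4.28 in WT MEFs, 43.1-fold. Nid1, a laminin-binding linker like Nid2, was at least 33.6-fold higher, Fbln2, a fibulin, at least 65.8-fold, Smoc2, a calcium-binding matrix protein, at least 25.5-fold and Gpc4, a surface heparan sulfate proteoglycan, at least 35.1-fold. Smoc2 was above the median on every KO MEF array too. Besides Thbs1 and Dcn, lower ones included Fn1, fibronectin, 2.48-fold at a high level in both lines, and Fmod, fibromodulin, at 6.14, 3.19, 5.39 and 2.92 in 10T1/2 cells against 7.96, 8.29 and 7.58 in WT MEFs. Both arrays with MAL were lowest for Fmod. Averaged over all probe sets, the differences were 3.49 for Fbln2, 2.31 for Nid1, -2.49 for Fn1 and -1.72 for Fmod, and Fmod was at -1.94 with treatments and serum time in the models.

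Among 38 tested matrix proteases and inhibitors, 13 were higher and 7 lower, with a median of 0.38 (0.02 length-centred). As shares of the 38, these calls were close to the 33.8% and 18.1% of all tested genes. Mme, the membrane peptidase neprilysin, read 8.21, 6.34, 7.72 and 7.72 in 10T1/2 cells against 2.94, 2.96 and 2.98 in WT MEFs, a difference of 4.54 that was 2.68 averaged over all its probe sets. Every KO MEF array had Mme above the median. Mmp3, stromelysin 1, read 4.07, 3.24, 3.26 and 3.06 in 10T1/2 cells against 7.66, 7.74 and 8.05 in WT MEFs, at least 15.7-fold lower.

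**Figure D3:**
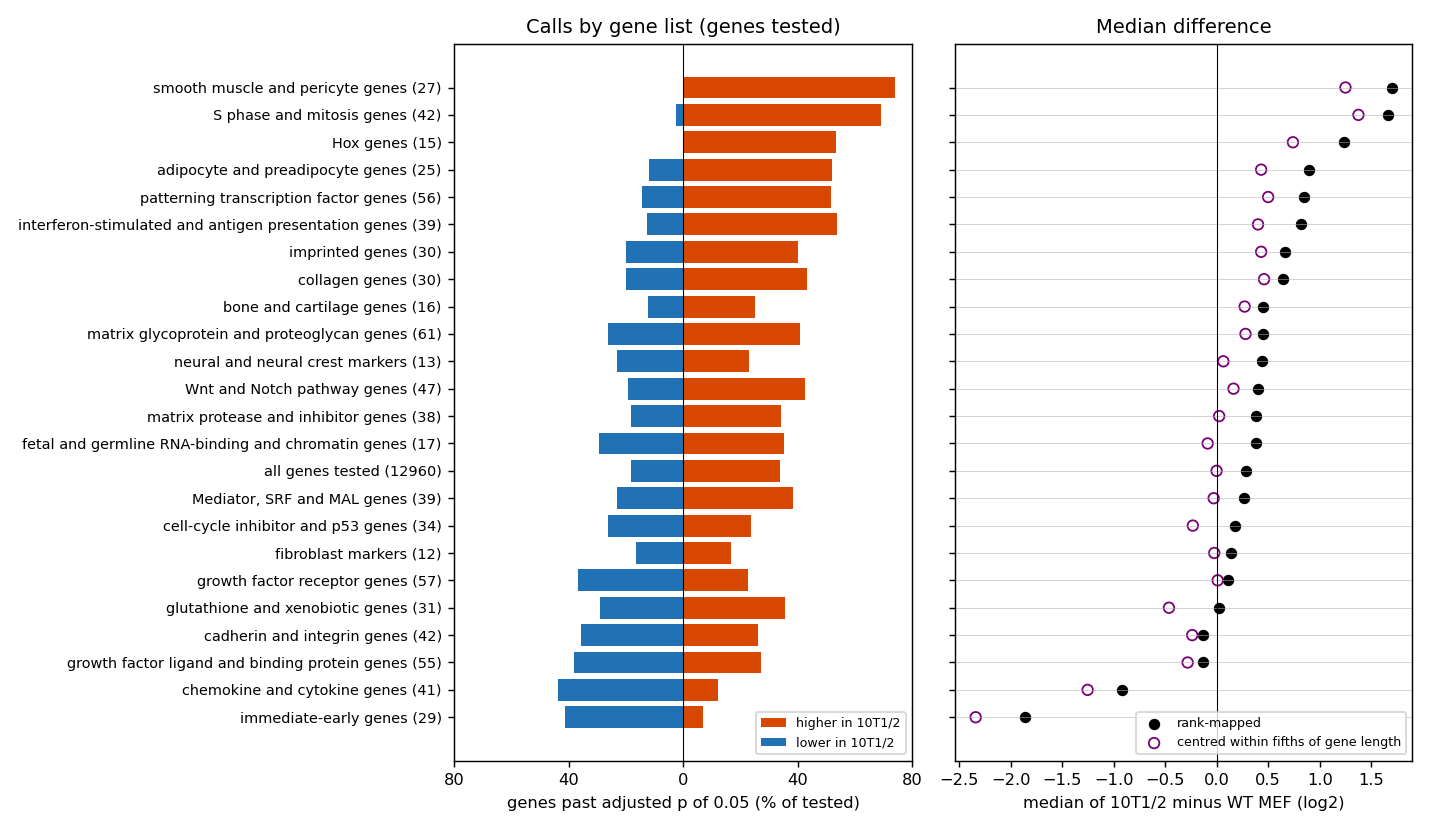
Gene lists with at least 12 tested genes, with the number tested in brackets: left, the percentage of tested genes called higher (bars to the right) or lower (bars to the left) in 10T1/2 against WT MEFs; right, the median log2 difference on the rank-mapped scale (filled) and after centring within groups of gene length (open). Smooth muscle and replication genes have the highest medians, 1.70 and 1.66, and immediate-early genes the lowest, -1.87.

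Smooth muscle and pericyte genes were higher in 10T1/2 as a group, but the untreated control carried only part of that. Of 27 tested, 20 were called higher and 0 lower, with a median of 1.70 (1.25 length-centred, 15 higher). The control lay at least 1 above each WT MEF array for 9 and at least 1 below for 2. Aoc3, a surface amine oxidase of vessel wall cells, and Cspg4, the pericyte proteoglycan NG2, were high on every array of the line. Aoc3 read 8.30, 9.0, 8.76 and 9.61 in 10T1/2 cells against 4.13, 4.37 and 4.30 in WT MEFs, and Cspg4 read 9.54, 9.11, 8.78 and 8.20 in 10T1/2 cells against 4.13, 4.48 and 4.36 in WT MEFs. They differed 25.2-fold and 24.0-fold.

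Of the contractile genes in this list, Actg2, Myl9, Tagln and Cnn1 were picked after their values were seen, and each was highest on both arrays with MAL. The array medians of the 32 measured members of the whole list were 6.51, 6.44, 7.03 and 7.40 in 10T1/2 cells, lowest with MAL alone, against 4.13, 3.99 and 4.33 in WT MEFs. Actg2, enteric smooth muscle actin, read 7.03, 11.30, 7.89 and 12.19 in 10T1/2 cells against 4.18, 3.90 and 3.69 in WT MEFs, so that even the control lay at least 2.85 above them. Myl9, a regulatory light chain of myosin, read 9.11, 11.55, 10.30 and 12.55 in 10T1/2 cells against 5.76, 6.79 and 6.83 in WT MEFs. Tagln, the actin-binding protein SM22, read 6.74, 10.01, 7.72 and 11.04 in 10T1/2 cells against 4.67, 5.97 and 5.91 in WT MEFs, and its call was lost without the WT MEF array at 0 min (adjusted p = 0.0594). Cnn1, calponin, read 3.95, 7.96, 4.97 and 9.49 in 10T1/2 cells against 3.23, 3.37 and 3.35 in WT MEFs. Its control was only 0.58 to 0.72 above them, and its call (adjusted p = 0.0407) was lost without the MAL array (adjusted p = 0.102) and without any of the WT MEF arrays (adjusted p from 0.0926 to 0.102). With treatments and serum time in a model of the 7 arrays, the differences were 2.84 for Actg2, 2.05 for Tagln and 0.59 for Cnn1. In such a model over all 10 arrays Cnn1 was at 1.29 and not called (adjusted p = 0.0767). Acta2, vascular smooth muscle actin, was at the top of the scale in both lines, at 13.34, 13.96, 13.45 and 14.04 in 10T1/2 cells against 13.08, 13.46 and 13.44 in WT MEFs, and was not called (adjusted p = 0.220). KO MEFs held Tagln at 11.29, 11.86 and 12.01, above all 7 arrays compared.

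**Figure D4:**
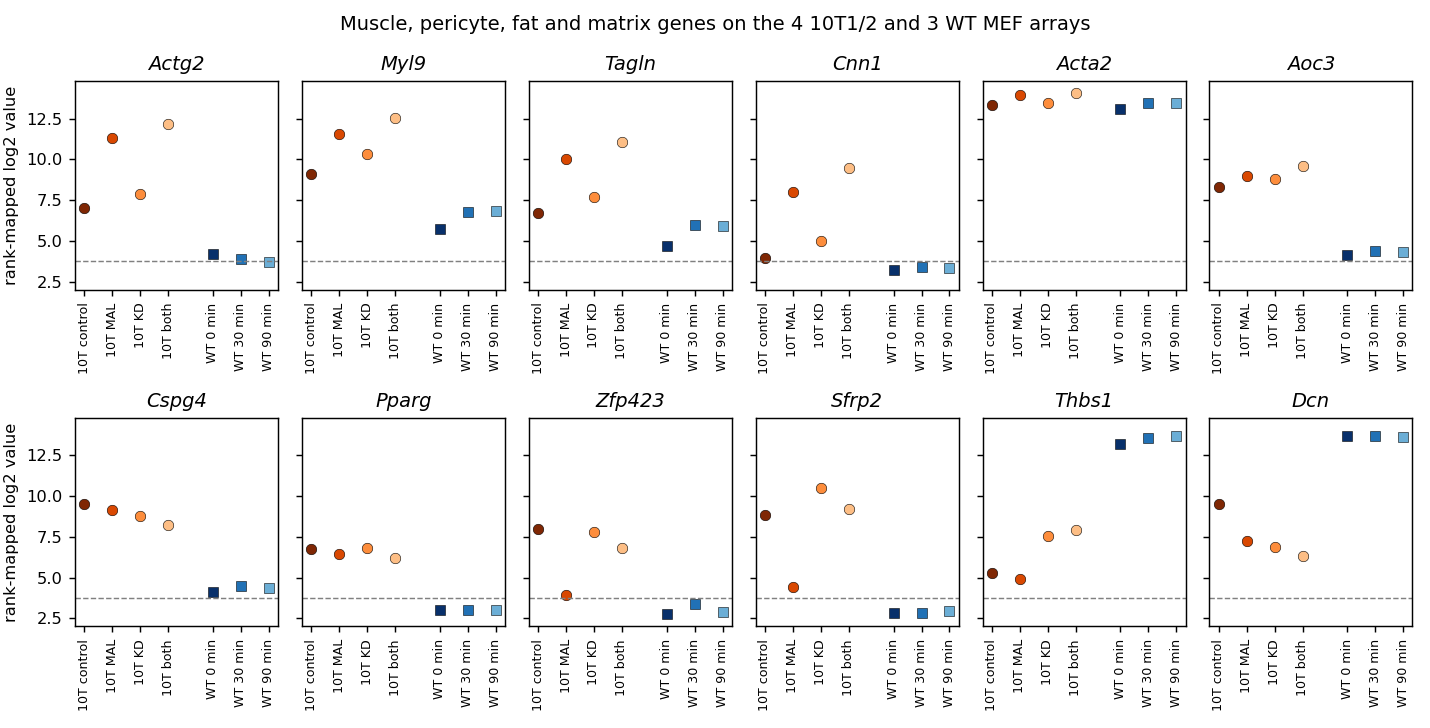
Rank-mapped log2 values (vertical axis) of 12 genes on the 4 10T1/2 arrays (circles: control, MAL, Med23 knockdown as KD, both treatments) and the 3 WT MEF arrays (squares, 0, 30 and 90 min of serum), with a dashed line at the median, 3.77. Actg2, Myl9, Tagln and Cnn1 are highest on both arrays with MAL. Aoc3 and Cspg4 are high on all 4 10T1/2 arrays, while Pparg is above the median on all 4. Zfp423 and Sfrp2 drop on the array with MAL alone.

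SRF binds the CArG box, a motif that reads the same way on both strands and was searched without mismatch. It was found in the promoter windows of 2 of 25 smooth muscle and pericyte genes with a promoter in the table (8.0%), Cnn2 and Myl9, and in 1.61% of the promoters of all tested genes. A match is not shown to be a working site. The Myl9 promoter is given because this gene was high in 10T1/2 and highest with MAL. The window is the 250 bases before the start, chr2:156775214-156775463 on the plus strand of GRCm38.p6, with the box in capitals, beginning at position -161 from the start.
Myl9: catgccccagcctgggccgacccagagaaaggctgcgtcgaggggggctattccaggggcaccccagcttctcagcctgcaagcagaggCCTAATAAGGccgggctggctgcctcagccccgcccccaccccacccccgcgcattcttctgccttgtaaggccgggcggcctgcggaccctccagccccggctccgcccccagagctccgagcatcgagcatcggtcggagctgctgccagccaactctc

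Among 25 tested adipocyte and preadipocyte genes, 13 were higher and 3 lower, with a median of 0.90 (0.43 length-centred). Pparg, Zfp423 and Sfrp2 were above the median on every 10T1/2 array and near background on every WT MEF array. In KO MEFs Zfp423 and Sfrp2 were above the median on all 3 arrays, as in 10T1/2, while Pparg was below it on all 3. Pparg, the master regulator of fat cells, read 6.76, 6.47, 6.83 and 6.17 in 10T1/2 cells against 3.0, 3.0 and 2.98 in WT MEFs, at least 6.90-fold higher (adjusted p = 6.07e-06). Cebpa, which acts with it, read 7.69, 6.46, 7.15 and 5.90 in 10T1/2 cells against 4.0, 3.89 and 4.36 in WT MEFs. Zfp423, a factor that commits cells to preadipocytes, read 7.97, 3.90, 7.80 and 6.81 in 10T1/2 cells against 2.76, 3.37 and 2.88 in WT MEFs. Sfrp2, a secreted Wnt modulator, read 8.86, 4.43, 10.47 and 9.22 in 10T1/2 cells against 2.83, 2.81 and 2.97 in WT MEFs. Both were lowest on the array with MAL alone. The 3 called lower included Cd24a, which also marks adipocyte progenitors. Of 16 bone and cartilage genes, 4 were higher and 2 lower.

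Imprinted genes, which are expressed from the allele of 1 parent, held 12 calls upward and 6 downward among 30 tested, with a median of 0.66 (0.43 length-centred). Sgce, a sarcoglycan, read 8.86, 9.47, 9.41 and 9.74 in 10T1/2 cells against 3.57, 3.78 and 3.77 in WT MEFs, at least 48.3-fold. Ndn, the growth suppressor necdin, was 31.5-fold higher and Grb10, an inhibitor of insulin signalling, 19.2-fold higher. The noncoding RNAs Meg3 and Rian and the surface protein Dlk1 come from a shared imprinted locus on chromosome 12. Meg3 read 8.38, 6.86, 9.07 and 7.47 in 10T1/2 cells against 3.67, 3.73 and 3.68 in WT MEFs, although its 8 other probe sets differed by between 0.18 and 4.66. Rian was at least 7.57-fold higher. Averaged over all probe sets, the differences were 3.01 for Sgce, 2.52 for Grb10, 1.47 for Meg3, 1.65 for Rian and 1.25 for Dlk1. Dlk1 read 7.38, 4.84, 5.49 and 4.11 in 10T1/2 cells, highest on the control, against 3.03, 2.56 and 3.33 in WT MEFs, and its call was lost without the WT MEF array at 30 min (adjusted p = 0.0559) and its difference of 2.48 became 4.08 with treatments and serum time in a model over all 10 arrays. In KO MEFs Sgce and Grb10 were also high, from 10.03 to 11.32, while Ndn, Meg3, Rian and Dlk1 did not exceed 3.91.

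Of 41 tested chemokine and cytokine genes, 18 were lower in 10T1/2, 5 were higher and 18 were not called, with a median of -0.92 (-1.25 length-centred). The untreated control lay at least 1 below each WT MEF array for 10 and at least 1 above for 8. The array medians of the list were 4.46, 3.99, 4.15 and 3.78 in 10T1/2 cells against 4.21, 4.80 and 5.81 in WT MEFs, so that the control lay above WT MEFs without serum. Lif, a cytokine of the interleukin 6 family, read 3.78, 4.57, 3.57 and 4.05 in 10T1/2 cells against 5.93, 10.28 and 12.04 in WT MEFs, so that every 10T1/2 array lay below even the WT MEF array without serum. Cxcl1, a neutrophil chemokine, read 10.03, 7.39, 10.19 and 8.71 in 10T1/2 cells against 12.80, 13.57 and 13.61 in WT MEFs, and Ccl2, a monocyte chemokine, read 10.26, 7.15, 9.37 and 8.92 in 10T1/2 cells against 11.60, 13.15 and 13.96 in WT MEFs. Cx3cl1, a membrane-bound chemokine, was 21.3-fold lower and Lcn2, the iron-binding acute-phase protein lipocalin 2, at least 19.4-fold, with Lcn2 at 8.13 on the 10T1/2 control and from 2.92 to 5.76 on the treated arrays. With treatments and serum time in a model over all 10 arrays, Lcn2 (-1.89, adjusted p = 0.0563), Cxcl1 (-1.98, adjusted p = 0.121) and Ccl2 (-0.85, adjusted p = 0.491) were not called, while Lif and Cx3cl1 were, at -2.65 and -2.59 against -5.42 and -4.41 without these terms. On percentile ranks Lcn2 was not called either (adjusted p = 0.0793), nor were Cxcl1 and Ccl2 (adjusted p = 0.0900 and 0.0962). Tnfrsf11b, the decoy receptor osteoprotegerin, went up, at 6.52, 8.29, 7.38 and 8.37 in 10T1/2 cells against 2.71, 2.64 and 2.38 in WT MEFs, a difference of 5.06 that was 2.85 averaged over all its probe sets. Every KO MEF array had Tnfrsf11b above the median.

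Interferon-stimulated and antigen presentation genes held 21 calls upward and 5 downward among 39 tested, with a median of 0.81. Length-centring brought this to 14 upward and 9 downward with a median of 0.40, so the excess of calls upward narrowed. It removed the excess over all tested genes too, with 3132 higher and 3212 lower. Their median went from 0.28 to -0.0016. Rtp4, an interferon-induced chaperone of receptors, read 7.71, 7.74, 7.16 and 7.68 in 10T1/2 cells against 4.28, 4.22 and 3.69 in WT MEFs, a difference of 3.51 that was 1.85 averaged over all its probe sets. H2-K1, a class I histocompatibility gene, was 2.06-fold higher, a call that length-centring removed (0.55, adjusted p = 0.0698), while treatments and serum time in a model of the 7 arrays gave 1.69.

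Growth factor receptors and ligands had more calls downward than upward. Of 57 receptors tested, 13 were higher and 21 lower, with a median of 0.11 (0.01 length-centred). Of 55 ligands and binding proteins, 15 were higher and 21 lower, with a median of -0.14 (-0.28 length-centred). Gdnf, a ligand of neurons and kidney, and its receptor Gfra1 were both lower. On all 3 KO MEF arrays Gdnf was below the median as well. Gdnf read 3.17, 3.27, 3.23 and 3.09 in 10T1/2 cells against 7.25, 8.19 and 9.24 in WT MEFs, and Gfra1 read 6.91, 3.41, 5.40 and 4.18 in 10T1/2 cells against 10.59, 10.73 and 10.49 in WT MEFs. Tgfb1, the cytokine TGF-beta 1, was 20.1-fold lower on its main probe set, with a log2 difference of -0.43 on the other and -2.38 averaged over both. Hbegf, a ligand of the EGF receptor, read 6.08, 6.06, 5.34 and 5.37 in 10T1/2 cells against 8.91, 12.20 and 12.62 in WT MEFs. Flt1, a receptor of VEGF, was 14.9-fold lower. With treatments and serum time in a model over all 10 arrays, Hbegf was not called (-2.15, against -5.53 without these terms, adjusted p = 0.0611) and Flt1 was at -2.57, against -3.90.

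Binding proteins of insulin-like growth factors split. Igfbp2 read 3.33, 3.49, 3.04 and 3.31 in 10T1/2 cells against 7.35, 7.15 and 7.46 in WT MEFs, and Igfbp3 and Igfbp4 were lower by 3.58 each on the log2 scale (-3.58 ± 0.84 SE for Igfbp3, -3.58 ± 0.42 SE for Igfbp4). In the model of all 10 arrays with treatments and serum time Igfbp3 was not called (-1.80, adjusted p = 0.0737), while Igfbp4 was (-2.92, adjusted p = 1.31e-05). Igfbp5 was higher, at 6.74, 6.76, 6.64 and 6.97 in 10T1/2 cells against 3.74, 3.02 and 3.44 in WT MEFs. Gas6, a ligand of Axl and related receptors, read 8.30, 5.07, 8.71 and 6.34 in 10T1/2 cells, lowest on both arrays with MAL, against 3.04, 2.83 and 3.34 in WT MEFs, and its difference of 4.04 was 2.14 averaged over all its probe sets.

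Of 42 cadherin and integrin genes, 11 were higher and 15 lower, with a median of -0.13. Itga3, an integrin subunit for laminins, read 4.86, 4.52, 4.33 and 4.36 in 10T1/2 cells against 8.43, 8.97 and 9.16 in WT MEFs, 20.2-fold lower. Itgb8, a subunit of an integrin that activates TGF-beta, was at least 12.8-fold lower, and Itgb1, the subunit shared by most matrix-binding integrins, 5.75-fold on its main probe set (-0.80 averaged over all). Itgb8 was also below the median on all 3 KO MEF arrays. Wnt and Notch pathway genes held 20 calls upward and 9 downward among 47, with a median of 0.40 (0.16 length-centred).

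Enzymes of glutathione and xenobiotic metabolism split 11 upward and 9 downward among 31 tested, with a median of 0.03 (-0.46 length-centred). For all tested genes the shares were 33.8% upward and 18.1% downward. Nqo1, a quinone reductase, read 9.09, 9.07, 8.80 and 7.16 in 10T1/2 cells against 3.35, 3.42 and 3.22 in WT MEFs, at least 27.1-fold higher, and Gstt1, a glutathione transferase, was 19.7-fold higher. Ahr, the receptor of dioxin and other aromatic ligands, read 5.47, 3.39, 5.57 and 4.23 in 10T1/2 cells against 9.75, 9.20 and 10.47 in WT MEFs. Mgst1, a microsomal glutathione transferase, was 24.6-fold lower and Aldh3a1, an aldehyde dehydrogenase, at least 18.7-fold lower. Averaged over all its probe sets Mgst1 differed by -2.32, and Aldh3a1 by -2.66 with treatments and serum time in a model over all 10 arrays, against -4.62 and -4.29.

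Of 29 tested immediate-early genes, 12 were lower in 10T1/2 and 2 higher, with a median of -1.87 (-2.34 length-centred). The array medians of these genes were 7.84, 7.72, 7.18 and 6.80 in 10T1/2 cells, close to the 7.15 of WT MEFs without serum and below their 10.71 and 9.93 at 30 and 90 min. Egr1, a zinc finger factor of the serum response, read 10.01, 9.27, 8.96 and 7.59 in 10T1/2 cells against 10.02, 13.52 and 11.98 in WT MEFs, so that the control and WT MEFs without serum differed by -0.01. Its call (adjusted p = 0.0151) was lost without the 30 min array (adjusted p = 0.0594). Its difference turned to 0.15 with treatments and serum time in a model of the 7 arrays. Egr3, a related factor, and Ier3, an early response gene, stayed below every WT MEF array, with Egr3 at 6.84, 6.18, 5.86 and 4.82 in 10T1/2 cells against 8.58, 12.13 and 10.99 in WT MEFs, and Ier3 at 9.38, 8.60, 9.20 and 8.41 in 10T1/2 cells against 11.43, 13.64 and 13.79 in WT MEFs. With treatments and serum time in a model of the 7 arrays Egr3 was at -1.65, against -4.64 without these terms. In such a model over all 10 arrays it was not called (-0.01, adjusted p = 0.995). Ier3 was at -2.05 over the 7 arrays, against -4.05. Among 39 Mediator, SRF and MAL genes, 15 were higher and 9 lower, with a median of 0.26 (-0.03 length-centred), near that of all genes.

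Both lines carried fibroblast markers. Of 12, 2 were called higher and 2 lower, and the array medians of the 12 were 11.07, 11.01, 11.23 and 11.70 in 10T1/2 cells against 11.16, 10.76 and 10.13 in WT MEFs. Those called were Col1a2 and Thy1 upward and Col1a1 and Fn1 downward. Thy1, a surface glycoprotein of many fibroblasts, read 6.58, 5.99, 5.43 and 4.73 in 10T1/2 cells and was near background in WT MEFs, at 3.08, 3.10 and 2.98. Markers of some other cell types were largely near background: 10 of 12 epithelial, 8 of 12 endothelial, 8 of 13 macrophage and blood, and 9 of 15 skeletal muscle markers lay below the median on all 7 arrays. Few of each list were tested. Calls upward and downward were 1 and 0 of 2 epithelial and 1 and 1 of 4 endothelial markers. They were 3 and 1 of 5 macrophage and blood markers and 4 and 0 of 6 skeletal muscle markers. The skeletal muscle markers had array sums of log2 values of 54.08, 59.03, 53.35 and 58.90 in 10T1/2 cells, highest on both arrays with MAL. In WT MEFs these were 49.51, 49.60 and 50.52. Sums for epithelium ran from 41.33 to 43.81 in 10T1/2 cells against 38.55 to 40.04 in WT MEFs. Those for endothelium overlapped, from 41.13 to 42.64 against 41.91 to 44.69. Over all tested genes the sums also lay higher in 10T1/2, from 86884 to 87642 against 83769 to 84774. Neural and neural crest markers differed from these in that count, with only 1 of 14 measured below the median on all 7 arrays. Their array medians were still low, at 4.93, 4.78, 4.21 and 3.72 in 10T1/2 cells against 3.93, 3.73 and 4.02 in WT MEFs. Of all 18193 genes measured, 12960 reached the median on at least 1 of the 7 arrays. Of the 13 tested, 3 were higher and 3 lower.

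The difference between the lines was uneven along the genome. Of the chromosomes other than Y, which had only 4 tested genes, chromosome 3 had the lowest median, at -0.29 over 631 genes, followed by chromosome 5 at -0.05 over 834 and chromosome 18 at 0.09 over 325. On chromosome 3, 35.0% of the tested genes were called lower and 17.4% higher, against 18.1% and 33.8% of all genes. The highest medians were those of chromosome 14, at 0.67 over 420 genes, chromosome 12, at 0.67 over 456, and chromosome 9, at 0.52 over 723. On chromosome 14, 51.4% were called higher and 9.76% lower. After centring by gene length the medians were -0.57 for chromosome 3, 0.48 for chromosome 14 and 0.45 for chromosome 12. Over runs of 25 neighbouring tested genes, the lowest median was -1.51, from Ttc14 to Hspa4l on chromosome 3, where 17 of 25 were lower and 3 higher, and the highest 1.38, from Ube2e1 to Plau on chromosome 14, where 20 of 25 were higher and 0 lower. The number of chromosome copies in either line was not measured.

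**Figure D5:**
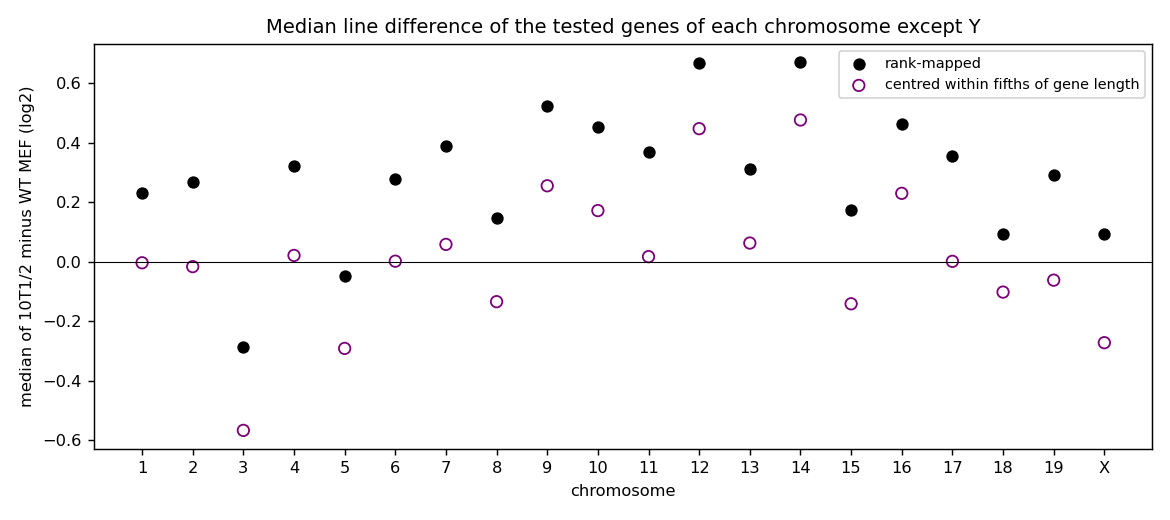
Median log2 difference between 10T1/2 and WT MEF arrays over the tested genes of each chromosome except Y (horizontal axis), on the rank-mapped scale (filled) and after centring within groups of gene length (open). Of the chromosomes plotted, 12 and 14 stand highest at 0.67 and 3 lowest at -0.29, and the order of these 3 against the rest is kept after centring.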

How the data were processed

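Expression was measured in 10 cultures of mouse cells on Affymetrix oligonucleotide arrays, from total RNA labelled with biotin, per the labels' protocols. The authors deposited 1 log2 expression value for each of 45101 probe sets and each array. RMA and MAS5 are named per the submitters' processing notes, without role or version, and a joint normalization of both lines is not stated there. Arrays have no read depth; precision is limited by their number.

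Without the 64 array controls, the 45037 probe sets of each array were ranked and the ranks mapped onto the mean sorted profile of the 7 arrays compared; KO arrays were placed on the same profile. Names came from the platform annotation, updated through Entrez identifiers to RefSeq (GRCm38.p6), which also gave gene order, lengths and promoter sequences. A single symbol was found for 34945 probe sets, several for 932, and 9160 were unnamed. Each gene was read from its probe set with the highest mean, and tested if its highest value passed the median of 3.77.

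limma 3.58.1 in R 4.3.3 fitted 4 10T1/2 against 3 WT MEF arrays, with 5 residual and 3.86 prior degrees of freedom. Treatment and serum time stayed in the residual. Two-sided p-values were adjusted over all tested genes after Benjamini and Hochberg (threshold 0.05). Errors are SE of the coefficient. Where levels lay below the median, "at least" folds raise them to it, a bound chosen after the data were seen. The script was tested on simulated data. The 15 largest called differences in each direction whose arrays did not overlap were named, skipping clone and predicted-gene names, together with label checks and list members, which were picked after their values were seen. Members and lists were chosen with earlier results of these data known, so no list is independent support. Alternatives changed the scaling, the filter, the summary over probe sets and the model, and left out each array in turn.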

Additional observations from a re-analysis of the deposited data

Results flagged for a closer look

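Among the 127 genes whose values were looked at one by one, 5 had an array that stood apart from the other 3 of 10T1/2 by more than Dixon's limit. That limit is made for replicates, and the arrays of 10T1/2 each had another treatment. The genes were also picked with their values known. The 1 in 20 that chance flags among replicates is therefore no reference here. Fn1 read 11.85 on the 10T1/2 MAL array and between 12.75 and 12.83 on the other 3. Osr1 read 9.80 on the 10T1/2 MAL array and between 10.27 and 10.37 on the others. Nqo1 read 7.16 with both treatments and between 8.80 and 9.09 on the others. Rtp4 read 7.16 on the Med23 knockdown array and between 7.68 and 7.74 on the others. Ptger4 read 4.0 on the Med23 knockdown array, where it rose just over the median of all probe sets, and between 3.40 and 3.48 on the others. In none of the 5 did the array reach the levels of WT MEFs.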

How the results depend on the processing

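Numbers of genes called stayed within 1.5 times of 6734 under the scalings, the model of all 10 arrays and the omission of any array. The filter at the 75th percentile tested only 8581 genes and left 2795 called higher. The share of calls that were higher, 65.1%, was 76.2% after subtracting each array's median (5447 higher, 1705 lower) and 49.4% after centring by gene length, and between 64.2% and 65.8% when an array was left out. Leaving out 1 array gave from 5112 calls (without WT MEF 30 min) to 7617 (without both treatments), with 3338 to 4891 higher and 1774 to 2726 lower. Of the 129 and 51 genes switched on and off on the control, limits of 80 and 40 left 46 and 26, and limits of 90 and 50 left 23 and 10; on all 4 arrays these were 15 and 17, and 10 and 8. Omitting a WT MEF array gave 137 to 145 on and 52 to 66 off for the control, and 56 to 63 on and 31 to 43 off on all 4 arrays. A difference of at least 2 on the control left 928 and 597 genes, and omitting a WT MEF array gave 2904 to 3026 higher and 1936 to 2092 lower.

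Of 123 named genes called, 108 kept call and direction in every alternative that tested them, up to 17. The model of the 7 arrays is 1 of these. Since it sets 10T1/2 against the WT MEF array at 0 min alone, its calls carry no weight. Cnn1 and Egr1 lost their calls in it as well as in others. Cnn1 lost its call in 10 of 17 (lowest adjusted p 0.00793) and Egr1 in 4 (lowest 0.00364). Cxcl1, Ccl2 and Lcn2 lost it in 2 each (highest 0.121, 0.491 and 0.0793). Tagln (highest 0.0594), Dlk1 (0.0559), Six4 (0.127), Col1a1 (0.0572), Fmod (0.0559), Hbegf (0.0611), Igfbp3 (0.0737), H2-K1 (0.0698), Egr3 (0.995) and Fn1 (0.620) lost it in 1 each. Egr1 turned positive with serum time modelled (0.60 over 10 arrays, 0.15 over 7). Uncalled genes also turned: Srf to 1.51 over 10 arrays, which was called, and to 1.56 over 7. Mtap turned to -0.065 over its probe sets and to -0.24 and -0.16 in the models. Length-centred, Hoxa9 turned to -0.15 and Acta2 to -0.11. The causes were not tested. The median over all genes moved from 0.28 to 0.46 with median centring and to -0.0016 with length-centring. No paired analysis was possible because each condition had 1 array. The arrays give no detection call, which limits what can be said of levels under the median.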
